A study of Mus musculus with 96 samples.

Results

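Luciferase-expressing C2C12 myoblasts that had been treated for 10 hr with piericidin, an inhibitor of mitochondrial complex I, were compared with the same cells treated with the vehicle DMSO. The comparison took 3 piericidin and 3 DMSO samples, 6 of the 96 samples of the series, chosen by their labels, and covered 11981 tested genes of the 54146 with deposited counts. C2C12 is a mouse muscle line that proliferates as myoblasts in rich serum and fuses into myotubes when serum is withdrawn. Both groups were proliferating myoblasts carrying a lentiviral luciferase gene that doxycycline switches on. Both received 300 ng/ml doxycycline from the day before treatment onward, in medium with 10 mM glucose, 4 mM glutamine and 10% dialyzed fetal bovine serum, without pyruvate or uridine, and piericidin was used at 0.5 µM. The luciferase line is a stable infected population that serves as control for lines that carry other enzymes. Beside the main comparison, piericidin was set against antimycin, which blocks complex III, and oligomycin, which blocks the ATP synthase, each for 10 hr in 3 samples of the same luciferase line. It was also set against its own effect in lines that carry NDI1, LbNOX or mitoLbNOX from the same inducible vector, with doxycycline and DMSO controls of their own. NDI1 is a yeast NADH dehydrogenase that takes over the electron transfer of complex I, LbNOX is a bacterial enzyme that oxidizes NADH with oxygen, and mitoLbNOX is LbNOX sent to the mitochondrial matrix.

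Complex I oxidizes NADH in the mitochondrial matrix, hands the electrons to ubiquinone and pumps protons that drive ATP synthesis. Cells with a poisoned respiratory chain are known to switch on the integrated stress response, in which kinases such as GCN2, PERK and HRI phosphorylate the initiation factor eIF2, most protein synthesis slows, and the transcription factor ATF4 is translated and induces genes for amino acid synthesis, amino acid uptake and tRNA charging. In proliferating cells the respiratory chain also supplies the electron acceptors needed to make aspartate and so nucleotides, and in muscle cells mitochondrial stress is known to raise the secreted factors FGF21 and GDF15.

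Each of the 6 libraries held between 9765471 and 13898633 estimated counts. A single ribosomal RNA row took between 24.83% and 27.71% of them, leaving the rest for all other genes. The luciferase transcript was present at 1964 to 2574 counts, and the counts of NDI1, LbNOX and eGFP were 0 in all 6. Spearman correlations were 0.983 or higher within each group and 0.928 or lower between groups. Labelled plate wells put all 3 DMSO samples and 1 piericidin sample (replicate 2) on the edge of the plate, so that plate position and treatment could be told apart only in part. The 8 myoblast identity markers were all measured and summed to between 7121 and 7448 counts, of a library total set to 1000000, with DMSO and between 5149 and 5243 with piericidin. Most of that sum was Vim, vimentin, at 6155 to 6477 with DMSO and 4181 to 4272 with piericidin, whereas Myf5 and Ncam1 were higher with piericidin. The 14 markers of endothelial, blood, epithelial, fat, cartilage, bone, neural and liver cells together summed to between 4.46 and 5.64 such counts with DMSO and between 6.35 and 7.76 with piericidin, and 5 of them (Adipoq, Alb, Epcam, Krt5 and Rbfox3) had a count of 0 in all 6 libraries. Of this list 3 genes had enough counts to be tested, and 1, the cartilage collagen Col2a1, was called higher, at 0.620, 0.272 and 1.17 CPM with DMSO and 1.23, 3.35 and 5.10 CPM with piericidin. With only the piericidin and DMSO groups in the model, 0 genes of this list were called, and its median log2 fold change moved from 0.46 to 0.27. The median was 0.27 without piericidin replicate 1 and 0.23 with library totals as the scale, with 1 gene called higher in each case. The part of these markers in the results was not tested. In pooled RNA, fewer cells of a kind and less RNA per cell cannot be told apart.

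Piericidin changed the level of most genes tested. In edgeR's quasi-likelihood test, with Benjamini-Hochberg adjustment over all 11981 genes and an adjusted p under 0.05 as the call, 3704 genes (30.9%) were higher and 3685 (30.8%) were lower than with DMSO. Changes of at least 2-fold were called for 1070 genes higher (8.93%) and 1376 lower (11.5%). Changes of at least 4-fold numbered 252 higher and 355 lower, and changes of at least 8-fold 92 and 96. The 3 piericidin values and the 3 DMSO values of a gene did not overlap at 7669 genes (64%). The balance between higher and lower calls rests on the scaling. Levels here are counts scaled to a total of 1000000 with TMM factors (CPM), given as mean ± SD (n = 3) where not listed by sample, and this scale put the median gene at a log2 fold change of -0.0037. With library totals alone as the scale, the median gene lay at -0.24 and the calls split into 2410 higher and 5175 lower, so directions below are relative to the median gene.

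**Figure D1:**
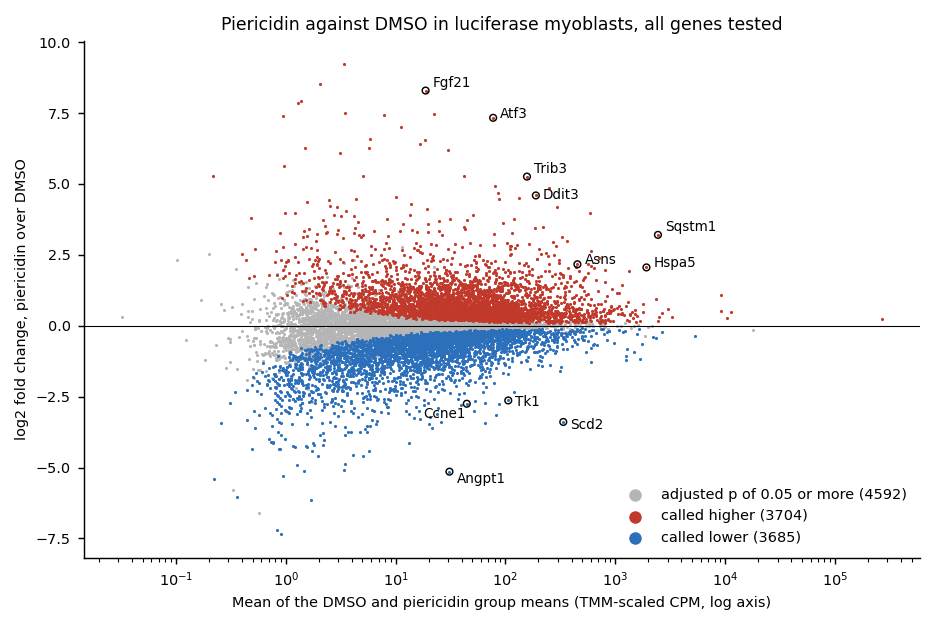
Each point is 1 of the 11981 genes tested, with the mean of the DMSO and piericidin group means in TMM-scaled CPM on a log axis and the fitted log2 fold change of piericidin over DMSO on the vertical axis. Red points (3704) were called higher, blue points (3685) lower, and gray points did not pass the test; circled genes are described in the text.

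The genes of 44 lists of pathways, complexes and markers were then followed. Lists of the integrated stress response, of amino acid handling and of small nucleolar RNA hosts held the highest medians, and cholesterol synthesis, chemokine and sterol regulator lists the lowest. Brackets after a list give its median and calls with library totals as the scale, where the median moved by over 1.5 times or turned its sign or the majority of calls turned, and with plate edge as a term, with only the groups compared or without 1 replicate, where the sign or the majority of calls turned or the median moved both by over 1.5 times and by at least 0.1. Medians of the lists are given beside the median of all tested genes, -0.0037, and their counts are read against the 30.9% of all genes called higher and the 30.8% called lower.

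**Figure D2:**
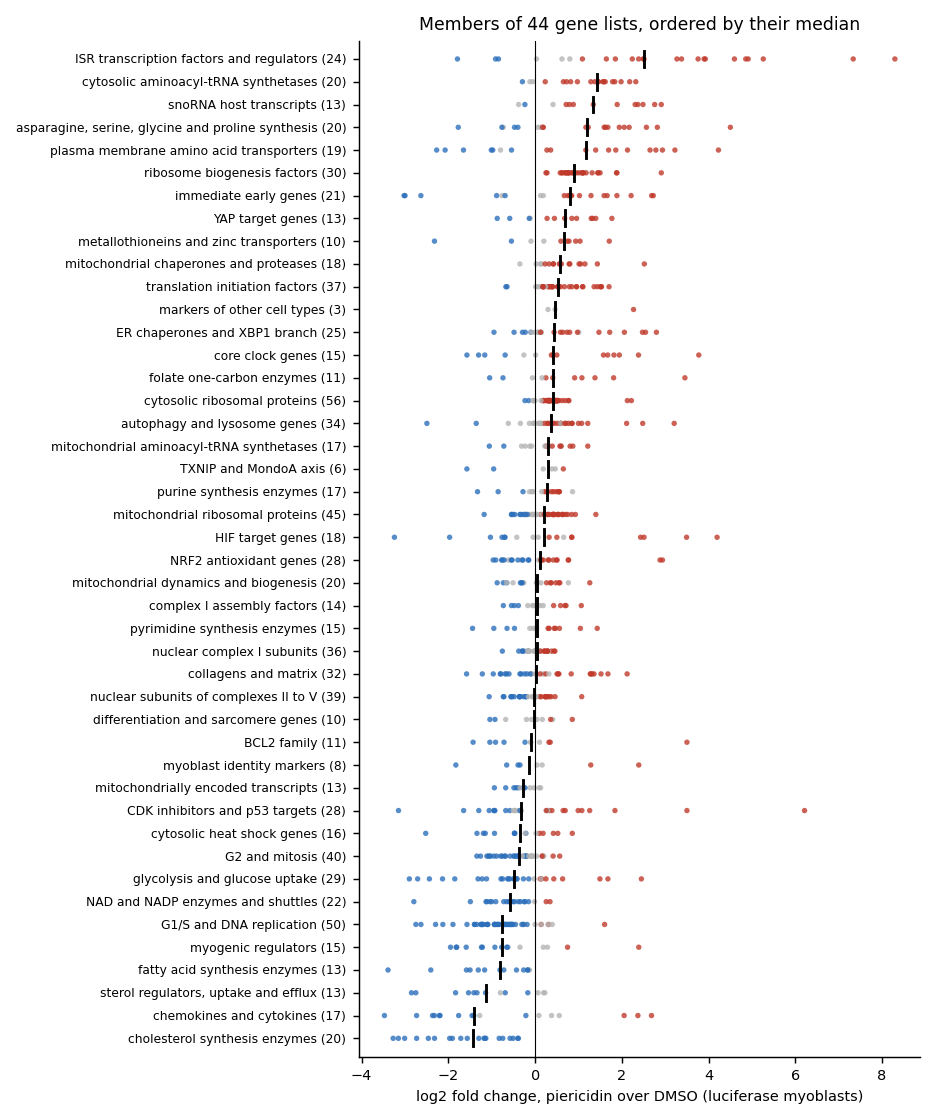
Each row is a gene list with its number of tested members in brackets, each point is a member at its log2 fold change for piericidin over DMSO, and the black bar is the median of the list; red and blue points passed the test and gray points did not. The median of the integrated stress response (ISR) list is 2.50 and that of the cholesterol synthesis list -1.43.

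The integrated stress response list moved upward as a group. Of its 24 tested regulators and direct targets, 18 were called higher, 3 lower and 3 did not pass the test, with a median log2 fold change of 2.50. Fgf21, an endocrine factor secreted under mitochondrial stress, measured 0.177, 0.0680 and 0.0896 CPM with DMSO and 35.0, 39.0 and 38.2 CPM with piericidin. It was near the detection limit in every DMSO sample and far above it in every piericidin sample, and the groups did not overlap (log2 fold change 8.30, SE 0.472, adjusted p = 1.4e-15). The DMSO libraries held 4 counts of it in all, so that its ratio of 348 had a 95% counting interval from 136 to 1280. Atf3, a stress-induced transcriptional regulator of the ATF and CREB family, measured 0.620, 1.02 and 1.17 CPM with DMSO and 153, 163 and 145 CPM with piericidin. All 3 piericidin values stood far above all DMSO values (log2 fold change 7.34, SE 0.213, adjusted p = 6.55e-23). Trib3, a pseudokinase that feeds back on ATF4, measured 9.39, 7.14 and 7.53 CPM with DMSO and 294, 328 and 297 CPM with piericidin. Its piericidin mean was 38.2 times its DMSO mean (log2 fold change 5.26, SE 0.0925, adjusted p = 2.6e-28), again without overlap. Gdf15, a secreted member of the TGF-beta family, rose from 5.17 ± 0.606 to 157 ± 9.02 CPM (SD, n = 3), with a log2 fold change of 4.91 (adjusted p = 9.44e-25).

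The transcription factors at the head of the pathway rose as well. Atf4 itself, named after its values were seen, measured 226, 219.7 and 233 CPM with DMSO and 1149, 1196 and 1206 CPM with piericidin, without overlap (log2 fold change 2.39, SE 0.0331, adjusted p = 1.1e-30). Ddit3, which encodes the stress transcription factor CHOP, measured 16.7, 14.96 and 13.4 CPM with DMSO and 360.3, 366 and 364 CPM with piericidin and was also chosen after its values were seen. Its groups lay apart, with a log2 fold change of 4.60 (adjusted p = 4.36e-30). Ppp1r15a, whose product GADD34 guides the phosphatase that removes the phosphate from eIF2, rose from 16.6 ± 2.24 to 483 ± 5.01 CPM (SD, n = 3; log2 fold change 4.86, adjusted p = 1.7e-26). Members that fell were eIF2 kinases. Eif2ak2 (PKR, a sensor of double-stranded RNA) fell from 16.9 ± 1.21 to 4.86 ± 1.16 CPM, a log2 fold change of -1.79 (adjusted p = 1.04e-08), and Eif2ak4 (GCN2, a sensor of uncharged tRNA) fell from 23.5 ± 1.78 to 12.5 ± 0.673 CPM, a log2 fold change of -0.91 (adjusted p = 5.36e-06). The heme-regulated kinase HRI, Eif2ak1, had a log2 fold change of -0.845 (adjusted p = 4.65e-07). Eif2ak3 (PERK, the kinase of the endoplasmic reticulum) did not pass the test at 0.62 (adjusted p = 0.084), but leaving out piericidin replicate 3 gave 0.96 and passed it.

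**Figure D3:**
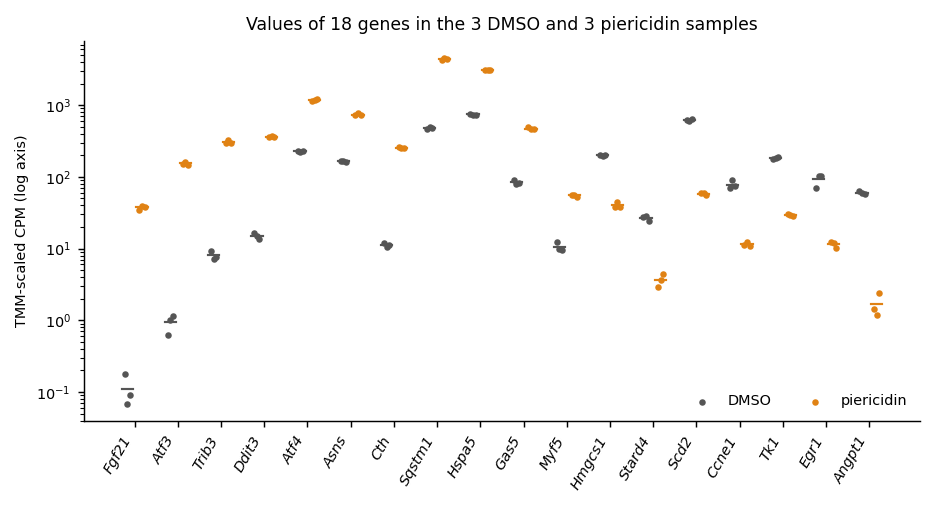
Points are the TMM-scaled CPM of 18 genes in each of the 3 DMSO (gray) and 3 piericidin (orange) samples on a log axis, and bars are group means. All 18 genes were chosen from those called, and their groups do not overlap, as at 64% of all genes tested. Among the 18, the gap is widest for Fgf21 and Atf3 of those that rose and for Angpt1 of those that fell.

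Promoters of the induced genes were searched for the element that ATF4 binds together with CEBP factors, spelled TGATGNAA and read on both strands. The windows ran from 250 bases before to 50 bases after each gene's start, from RefSeq on GRCm38.p6, and 8828 of the tested gene symbols matched at least 1 of the 32851 windows. The letters occurred in 3.97% of all windows and at 2.56% of the tested genes with a window. They occurred at 55 of 809 genes (6.8%) called at least 2-fold higher, at 23 of 979 (2.35%) called at least 2-fold lower and at 61 of 3207 (1.9%) that did not pass the test. Among the lists, they were found at 7 of 21 stress response regulators, 5 of 12 cytosolic aminoacyl-tRNA synthetases, 3 of 15 amino acid synthesis genes and 2 of 13 amino acid transporters. In the lipid and cell cycle lists they were found at 1 of 8 sterol regulators (12.5%), 1 of 15 cholesterol and 0 of 10 fatty acid synthesis enzymes, 1 of 42 replication genes and 1 of 34 mitosis genes. These are matches of letters, not measured binding. Of the stress response list, Gdf15, Ppp1r15a, Ddit3 and Atf4 rose but held no match, and Jdp2 held a match at a log2 fold change of 0.0331. The windows of 6 genes picked because they both rose and held a match are printed, 5′ to 3′ on the strand of the gene, with each match in capitals. A match on the opposite strand reads TTNCATCA. The windows lie at chr7:45615441-45615740 (minus strand) for Fgf21, chr1:191183284-191183583 (minus) for Atf3, chr2:152344011-152344310 (minus) for Trib3, chr6:7693160-7693459 (minus) for Asns, chr3:50443564-50443863 (minus) for Slc7a11 and chr8:111033592-111033891 (plus) for Aars.
Fgf21: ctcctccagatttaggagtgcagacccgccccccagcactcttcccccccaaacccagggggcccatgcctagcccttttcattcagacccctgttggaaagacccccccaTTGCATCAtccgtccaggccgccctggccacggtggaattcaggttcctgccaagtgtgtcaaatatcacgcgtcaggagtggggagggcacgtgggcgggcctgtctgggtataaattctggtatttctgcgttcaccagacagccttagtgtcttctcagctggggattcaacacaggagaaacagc
Atf3: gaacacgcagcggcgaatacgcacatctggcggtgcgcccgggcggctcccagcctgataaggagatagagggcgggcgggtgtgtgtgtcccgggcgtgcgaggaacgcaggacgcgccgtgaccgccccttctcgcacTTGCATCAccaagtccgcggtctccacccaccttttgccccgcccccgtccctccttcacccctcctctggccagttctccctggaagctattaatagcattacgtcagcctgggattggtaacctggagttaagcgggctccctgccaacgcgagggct
Trib3: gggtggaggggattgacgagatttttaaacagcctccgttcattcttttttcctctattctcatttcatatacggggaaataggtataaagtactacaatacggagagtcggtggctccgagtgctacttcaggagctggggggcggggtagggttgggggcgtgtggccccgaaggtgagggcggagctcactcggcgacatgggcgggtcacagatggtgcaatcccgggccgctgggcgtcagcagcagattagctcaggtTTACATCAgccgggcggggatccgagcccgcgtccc
Asns: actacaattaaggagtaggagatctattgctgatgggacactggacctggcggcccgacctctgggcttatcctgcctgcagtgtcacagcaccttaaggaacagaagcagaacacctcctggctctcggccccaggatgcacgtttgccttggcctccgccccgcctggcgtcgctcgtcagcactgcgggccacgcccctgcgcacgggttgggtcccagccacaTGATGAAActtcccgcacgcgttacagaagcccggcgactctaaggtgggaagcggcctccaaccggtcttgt
Slc7a11: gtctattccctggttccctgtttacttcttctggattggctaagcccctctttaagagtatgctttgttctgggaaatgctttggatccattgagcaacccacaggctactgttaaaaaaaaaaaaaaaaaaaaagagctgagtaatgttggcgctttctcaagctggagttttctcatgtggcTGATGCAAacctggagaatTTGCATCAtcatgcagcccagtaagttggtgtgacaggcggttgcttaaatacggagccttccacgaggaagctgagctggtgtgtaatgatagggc
Aars: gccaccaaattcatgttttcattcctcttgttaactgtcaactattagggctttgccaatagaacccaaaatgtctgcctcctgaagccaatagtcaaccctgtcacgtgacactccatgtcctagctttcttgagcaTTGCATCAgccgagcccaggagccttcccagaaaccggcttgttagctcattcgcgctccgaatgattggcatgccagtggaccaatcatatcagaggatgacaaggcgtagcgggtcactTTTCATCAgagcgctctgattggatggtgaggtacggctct
Slc7a11 and Aars hold 2 matches each, and the other 4 genes hold 1.

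Enzymes that make asparagine, serine, glycine, proline and related amino acids mostly rose. Of 20 tested, 13 were called higher, 4 lower and 3 did not pass the test, with a median log2 fold change of 1.197. Asns, asparagine synthetase, whose window is printed above, measured 166, 165 and 163 CPM with DMSO and 720.0, 779.5 and 719 CPM with piericidin. Its groups did not overlap (log2 fold change 2.17, SE 0.0498, adjusted p = 1.79e-25). Cth, which makes cysteine from cystathionine, measured 12.1, 10.5 and 11.1 CPM with DMSO and 257, 256 and 251 CPM with piericidin. It stood 22.6-fold above the DMSO mean (log2 fold change 4.50, SE 0.1, adjusted p = 9.91e-26). Gpt2, the mitochondrial alanine aminotransferase, rose from 71.4 ± 19.8 to 505 ± 3.48 CPM (log2 fold change 2.82, adjusted p = 1.06e-19). Psph, the last enzyme of serine synthesis, rose from 68.3 ± 6.21 to 404 ± 9.29 CPM (log2 fold change 2.57, adjusted p = 6.61e-27). Against this direction went Cbs, the enzyme before Cth in the transsulfuration path, at 1.33, 1.36 and 1.08 CPM with DMSO and 0.560, 0.216 and 0.312 CPM with piericidin, and Glul, glutamine synthetase, with log2 fold changes of -1.77 (adjusted p = 0.00404) and -0.77 (adjusted p = 5.97e-07).

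Of 11 folate one-carbon enzymes, 7 were called higher, 2 lower and 2 did not pass the test, with a median log2 fold change of 0.41 (0.173 with library totals, 6 higher and 2 lower). Large increases were in Aldh1l2 and Mthfd2, the mitochondrial enzymes that oxidize one-carbon units, and in Mthfd1l, which releases them as formate (log2 fold change 1.38, adjusted p = 2.9e-17). Aldh1l2 measured 32.0, 31.4 and 30.4 CPM with DMSO and 339, 351 and 337 CPM with piericidin, without overlap (log2 fold change 3.45, SE 0.0664, adjusted p = 2.16e-27). Mthfd2 rose from 125 ± 5.16 to 437 ± 5.26 CPM (log2 fold change 1.81, adjusted p = 2.78e-24). Tyms, thymidylate synthase, fell from 96.7 ± 2.74 to 57.9 ± 1.88 CPM (log2 fold change -0.74, adjusted p = 4.93e-11).

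Amino acid transporters of the plasma membrane split. Of 19, 12 were called higher, 6 lower and 1 did not pass the test, with a median log2 fold change of 1.17. Slc7a11, the cystine importer, measured 2.30, 3.47 and 4.75 CPM with DMSO and 27.5, 25.5 and 27.6 CPM with piericidin (log2 fold change 2.94, SE 0.189, adjusted p = 2.79e-14). Slc7a5, which brings in large neutral amino acids, rose from 10.1 ± 0.326 to 69.7 ± 12.6 CPM (log2 fold change 2.78, adjusted p = 1.66e-17), and Slc6a9, a glycine transporter, rose from 15.2 ± 0.462 to 142 ± 3.87 CPM (log2 fold change 3.22, adjusted p = 1.08e-23). The arginine transporter Slc7a3 was at a low level throughout, with 9 counts in the DMSO libraries together, and had a log2 fold change of 4.23 (adjusted p = 5.69e-07). The glutamate and aspartate importer Slc1a3 fell from 14.8 ± 2.01 to 3.06 ± 0.120 CPM (log2 fold change -2.27, adjusted p = 1.07e-09), and the amino acid exporter Slc43a2 fell to 0.912 ± 0.803 CPM (log2 fold change -2.08, adjusted p = 3.99e-05).

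The enzymes that charge tRNAs with amino acids were followed in 2 lists. Of 20 cytosolic enzymes, which charge tRNAs for the main ribosome, 17 were called higher, 1 lower and 2 did not pass the test, with a median log2 fold change of 1.42. Sars, the serine enzyme, measured 206, 205 and 206 CPM with DMSO and 906, 957 and 938 CPM with piericidin, without overlap (log2 fold change 2.18, SE 0.0394, adjusted p = 5.29e-28). Wars, the tryptophan enzyme, rose from 102 ± 8.09 to 512 ± 15.7 CPM, Nars, the asparagine enzyme, rose from 329 ± 11.6 to 1300.0 ± 35.7 CPM, and Aars, the alanine enzyme, rose from 141 ± 23.0 to 503 ± 47.99 CPM, with log2 fold changes of 2.32, 1.98 and 1.84. Qars, the glutamine enzyme, was the member called lower, at -0.29 (adjusted p = 3.37e-05). Of 17 mitochondrial enzymes, 7 were called higher, 2 lower and 8 did not pass the test, with a median log2 fold change of 0.29 (0.0607 with library totals, 3 higher and 5 lower), and Nars2, the asparagine enzyme, rose most, at 1.21. The difference between both lists was not tested.

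Transcripts for making ribosomes and starting translation were higher. All 30 ribosome biogenesis factors were called higher, with a median log2 fold change of 0.896. With library totals 28 were called, without Rrn3 and Ubtf, at a median of 0.66, and 29, without Fbl, with plate edge as a term or without piericidin replicate 3. Nop56, a core protein of the box C/D particles that modify ribosomal RNA, measured 242, 241 and 247 CPM with DMSO and 869, 906 and 907 CPM with piericidin (log2 fold change 1.88, SE 0.0423, adjusted p = 1.15e-25). Myc, the transcription factor that drives ribosome synthesis, rose from 60.9 ± 4.02 to 225 ± 9.10 CPM (log2 fold change 1.89, adjusted p = 5.36e-22). Rrs1, a 60S assembly factor, varied widely between replicates, at 10.9, 42.3 and 18.9 CPM with DMSO and 227, 94.8 and 229.7 CPM with piericidin, still without overlap (log2 fold change 2.91, adjusted p = 0.000123). Of 56 cytosolic ribosomal proteins, 49 were called higher, 2 lower and 5 did not pass the test, with a median log2 fold change of 0.40 (0.171 with library totals, 30 higher and 6 lower). Rpl12 stood out in this list, at 54.3, 53.5 and 56.4 CPM with DMSO and 257, 245 and 262 CPM with piericidin (log2 fold change 2.22, SE 0.0921, adjusted p = 5.53e-19). Ribosomal protein genes have many processed copies in the genome, so that reads may be split between them. Of 37 initiation factors, 30 were called higher, 2 lower and 5 did not pass the test, with a median log2 fold change of 0.52 (0.29 with library totals, 23 higher and 4 lower), led by Eif2b3, a subunit of the eIF2 exchange factor (log2 fold change 1.70, adjusted p = 4.58e-20), and Eif1a (log2 fold change 1.53, adjusted p = 2.51e-21). Eif5 and Eif2a fell, at -0.67 and -0.65.

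Host transcripts of small nucleolar RNAs, many of which are translated poorly and decay when translated, were higher. Of 13, 10 were called higher, 1 lower and 2 did not pass the test, with a median log2 fold change of 1.34. Gas5 measured 90.4, 80.4 and 81.5 CPM with DMSO and 491, 459 and 464 CPM with piericidin, without overlap (log2 fold change 2.49, SE 0.066, adjusted p = 6.9e-24). Snhg12, Snhg1 and Zfas1 had log2 fold changes of 2.91, 2.76 and 2.37. Snhg4, the member called lower at -0.24 (adjusted p = 0.0327), lost its call under DESeq2's Wald test and in 3 fits that left out a replicate.

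Transcripts of cholesterol synthesis enzymes were lower. All 20 enzymes tested were called lower, with a median log2 fold change of -1.43, and 14 fell at least 2-fold. Idi1, the isomerase that makes the isoprenoid building block, measured 152, 148 and 146 CPM with DMSO and 14.9, 16.2 and 18.9 CPM with piericidin. No piericidin value came near a DMSO value (log2 fold change -3.15, SE 0.0824, adjusted p = 4.78e-24). Dhcr7, a sterol reductase late in the pathway, fell from 29.1 ± 1.81 to 3.61 ± 0.835 CPM, with a log2 fold change of -3.01 (adjusted p = 2.37e-16). Acat2, which makes acetoacetyl-CoA for the pathway, fell from 113 ± 4.99 to 17.1 ± 0.937 CPM (log2 fold change -2.73, adjusted p = 3.32e-24). Sqle, squalene epoxidase, named after its values were seen, had a log2 fold change of -0.51 (adjusted p = 2.98e-08).

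Of 13 sterol regulators and carriers, 0 were called higher, 9 lower and 4 did not pass the test, with a median log2 fold change of -1.14. Stard4, a cholesterol carrier, measured 27.5, 28.6 and 24.02 CPM with DMSO and 2.91, 3.68 and 4.47 CPM with piericidin, without overlap (log2 fold change -2.85, SE 0.176, adjusted p = 1.01e-14). Insig1, which holds the sterol sensor in the endoplasmic reticulum, fell from 63.1 ± 27.5 to 17.7 ± 2.93 CPM, and Srebf1, a master regulator of lipid synthesis, fell from 93.7 ± 2.68 to 32.3 ± 3.27 CPM. Of 13 fatty acid synthesis enzymes, 0 were called higher, 12 lower and 1 did not pass the test, with a median log2 fold change of -0.81. Scd2, a desaturase that makes monounsaturated fatty acids, measured 611, 597 and 634 CPM with DMSO and 60.1, 60.1 and 55.2 CPM with piericidin and fell in all samples (log2 fold change -3.39, SE 0.0496, adjusted p = 3.28e-30). Elovl6, which elongates palmitate, fell from 63.1 ± 2.17 to 11.9 ± 0.332 CPM (log2 fold change -2.41, adjusted p = 9.28e-17). Acss2 and Fads2 followed at -1.58 and -1.5.

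The sterol regulatory element, searched as TCACNCCAC on both strands, was present in 1.24% of all promoter windows, at 121 of 8828 tested genes (1.37%), at 48 of 3207 (1.5%) that did not pass the test, at 25 of 979 genes (2.55%) called at least 2-fold lower and at 11 of 809 (1.36%) called at least 2-fold higher. Of the cholesterol synthesis list, 1 of 15 genes with a window held these letters, as did 0 of 10 fatty acid synthesis enzymes and 0 of 8 sterol regulators. Only these exact letters within the window were counted, so sites spelled otherwise or lying elsewhere were missed. That gene was Hmgcs1, the synthase that makes HMG-CoA, at 200.1, 197 and 203 CPM with DMSO and 38.2, 44.5 and 37.8 CPM with piericidin (log2 fold change -2.32, adjusted p = 7.22e-23). Its window, chr13:119690101-119690400 on the plus strand of GRCm38.p6, is printed with the match in capitals as the single case in the list.
Hmgcs1: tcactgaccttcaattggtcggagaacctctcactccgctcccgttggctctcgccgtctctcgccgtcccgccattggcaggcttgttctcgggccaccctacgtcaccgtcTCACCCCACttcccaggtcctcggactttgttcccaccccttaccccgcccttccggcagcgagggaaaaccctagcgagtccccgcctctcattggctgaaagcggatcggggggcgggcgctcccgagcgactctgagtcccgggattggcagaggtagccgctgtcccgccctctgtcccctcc

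Genes of the G1 to S transition and of DNA replication were lower. Of 50 tested, 3 were called higher, 41 lower and 6 did not pass the test, with a median log2 fold change of -0.77. Ccne1, cyclin E, which opens S phase with CDK2, measured 69.7, 89.1 and 73.6 CPM with DMSO and 11.3, 12.5 and 10.7 CPM with piericidin. The groups lay apart (log2 fold change -2.75, SE 0.1, adjusted p = 2.27e-20). Tk1, the thymidine kinase of S phase, measured 177, 183 and 189 CPM with DMSO and 30.5, 29.5 and 28.4 CPM with piericidin, again without overlap (log2 fold change -2.63, SE 0.0587, adjusted p = 1e-25). E2f8, a repressor of the E2F family, and Chaf1b, which loads histones on new DNA, fell from 34.4 ± 0.8497 to 6.996 ± 1.25 CPM and from 57.5 ± 1.34 to 13.1 ± 1.81 CPM. Ccnd2, cyclin D2, went the other way from 58.3 ± 3.60 to 177 ± 0.654 CPM (log2 fold change 1.602, adjusted p = 4.8e-17). Cdk4 was called higher at 0.31, a call that library totals as the scale removed. Of 40 genes of G2 and mitosis, 4 were called higher, 25 lower and 11 did not pass the test, with a median log2 fold change of -0.37 (-0.602 with library totals, 2 higher and 35 lower). Spc25 and Nuf2, of the kinetochore, and Bub1, of the spindle checkpoint, had log2 fold changes of -1.34, -1.11 and -1.26, and Tpx2 and Aurka, which build the spindle, were higher at 0.57 and 0.41.

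The letters of the E2F site, TTTGGCGC or TTTCCCGC on either strand, occurred in 1.56% of all windows and at 3.62% of the tested genes with a window. They were found at 15 of 42 genes of the replication list (35.7%), at 114 of 3207 (3.55%) that did not pass the test, at 39 of 979 genes (3.98%) called at least 2-fold lower and at 21 of 809 (2.6%) called at least 2-fold higher. None of 34 genes of the mitosis list held them. The windows of Mcm5 (chr8:75109259-75109558, plus strand) and Mcm6 (chr1:128359656-128359955, minus strand), subunits of the replicative helicase, are printed with matches in capitals, since both genes fell, at log2 fold changes of -1.23 (adjusted p = 1.57e-19) and -1.202 (adjusted p = 2.88e-15).
Mcm5: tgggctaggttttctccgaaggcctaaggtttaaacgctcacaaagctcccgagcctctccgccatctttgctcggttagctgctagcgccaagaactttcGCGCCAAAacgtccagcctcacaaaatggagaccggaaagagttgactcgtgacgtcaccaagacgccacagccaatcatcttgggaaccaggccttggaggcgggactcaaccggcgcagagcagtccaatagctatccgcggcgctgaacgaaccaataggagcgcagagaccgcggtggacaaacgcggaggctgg
Mcm6: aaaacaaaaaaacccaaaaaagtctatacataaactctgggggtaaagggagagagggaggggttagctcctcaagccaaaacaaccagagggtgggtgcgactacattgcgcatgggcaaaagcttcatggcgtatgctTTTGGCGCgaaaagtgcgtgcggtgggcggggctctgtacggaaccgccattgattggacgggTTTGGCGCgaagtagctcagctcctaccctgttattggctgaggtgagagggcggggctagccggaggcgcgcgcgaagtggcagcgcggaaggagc

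The inhibitors of the cell cycle and the targets of p53 did not move as 1 group. Of 28, 11 were called higher, 10 lower and 7 did not pass the test, with a median log2 fold change of -0.33 (-0.57 with library totals, 9 higher and 14 lower, and -0.194 without piericidin replicate 3, 11 higher and 9 lower). Gadd45a, a growth arrest gene, rose from 1.33, 0.408 and 0.717 CPM with DMSO to 60.8, 45.5 and 71.3 CPM with piericidin (log2 fold change 6.21, SE 0.307, adjusted p = 4.6e-17). Pmaip1, which encodes the death factor NOXA, rose from 6.81 ± 0.675 to 76.9 ± 10.3 CPM (log2 fold change 3.501, adjusted p = 1.98e-21), and Plk2 rose from 72.0 ± 4.11 to 258 ± 3.26 CPM (log2 fold change 1.84, adjusted p = 5.66e-22). Perp and Ddit4l were lower, at -3.15 (adjusted p = 1.58e-05) and -1.65 (adjusted p = 0.000126). Of 11 BCL2 family genes, 3 were called higher, 5 lower and 3 did not pass the test, with a median log2 fold change of -0.10 (-0.34 with library totals, 1 higher and 6 lower). The death promoters Bcl2l11 (BIM) and Bad fell, at -1.43 and -1.04, and so did the protector Bcl2l1 (BCL-XL), at -0.91.

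Nuclear-encoded subunits of the inhibited complex moved little. Of 36 nuclear-encoded complex I subunits, 10 were called higher, 6 lower and 20 did not pass the test, with a median log2 fold change of 0.0347 (-0.198 with library totals, 2 higher and 19 lower, and -0.0176 without DMSO replicate 3, 7 higher and 9 lower). None changed 2-fold. Ndufb3 moved furthest, from 32.0 ± 1.51 to 18.9 ± 1.04 CPM (log2 fold change -0.76, adjusted p = 1.88e-05), followed by Ndufa12 at 0.46, Ndufa10 at 0.436 and Ndufb8 at -0.38. Of 14 assembly factors of complex I, 5 were called higher, 4 lower and 5 did not pass the test, with a median log2 fold change of 0.0370 (-0.195 with library totals, 3 higher and 6 lower), and Tmem186 rose most, from 13.3 ± 2.09 to 28.0 ± 1.58 CPM. Of 39 nuclear subunits of complexes II to V, 11 were called higher, 15 lower and 13 did not pass the test, with a median log2 fold change of -0.0146 (-0.25 with library totals, 4 higher and 28 lower), and Uqcrq of complex III and Atp5k of the ATP synthase moved most, at 1.07 (adjusted p = 4.88e-10) and -1.06 (adjusted p = 2.36e-05). Of 13 mitochondrially encoded messages, 0 were called higher, 7 lower and 6 did not pass the test, with a median log2 fold change of -0.28 (-0.51 with library totals, 0 higher and 11 lower, and -0.42 without piericidin replicate 1, 0 higher and 7 lower). The members called were 6 complex I subunits and mt-Atp8. The largest fall was in mt-Nd1, at 2182, 1886 and 1709 CPM with DMSO and 1106, 999 and 908 CPM with piericidin (log2 fold change -0.94, SE 0.086, adjusted p = 8.18e-11), whereas mt-Co1 and mt-Co2 of complex IV did not pass the test, at -0.0234 (adjusted p = 0.809) and 0.126 (adjusted p = 0.219), and were named after their values were seen. Mitochondrial transcripts together, ribosomal RNA included, made up between 2.87% and 3.60% of counts with DMSO and between 2.09% and 2.55% with piericidin. Reads of mt-Nd4 and mt-Nd4l overlap and could be split between them.

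Enzymes and carriers of NAD and NADP metabolism were mostly lower. Of 22 shuttle members, NAD- or NADP-linked oxidoreductases and NAD synthesis enzymes, 2 were called higher, 19 lower and 1 did not pass the test, with a median log2 fold change of -0.57. Idh1, the NADP-linked isocitrate dehydrogenase of the cytosol, measured 67.8, 73.7 and 65.6 CPM with DMSO and 9.40, 11.4 and 9.05 CPM with piericidin, without overlap (log2 fold change -2.80, SE 0.102, adjusted p = 2.56e-20). Gpd1l, a cytosolic glycerol 3-phosphate dehydrogenase, fell from 33.1 ± 3.84 to 11.7 ± 2.51 CPM, and Slc25a12, the aspartate and glutamate carrier of the malate shuttle, fell from 65.2 ± 3.04 to 29.7 ± 1.09 CPM (log2 fold changes -1.49 and -1.13, adjusted p = 3.58e-10 and 1.41e-12). Nampt, of NAD salvage, and Mdh2, a malate dehydrogenase, were called higher at 0.34 and 0.26, calls that library totals as the scale removed. Of 29 genes of glycolysis and glucose uptake, 8 were called higher, 19 lower and 2 did not pass the test, with a median log2 fold change of -0.48. Pfkm, the muscle phosphofructokinase, measured 34.1, 32.9 and 36.3 CPM with DMSO and 5.71, 4.33 and 5.72 CPM with piericidin (log2 fold change -2.71, SE 0.126, adjusted p = 9.07e-18). Pdk4, which turns off pyruvate dehydrogenase, fell from 42.9 ± 2.68 to 5.75 ± 1.41 CPM (log2 fold change -2.90, adjusted p = 1.84e-14), and the lactate exporter Slc16a3 fell from 6.10 ± 1.06 to 1.12 ± 0.101 CPM (log2 fold change -2.44, adjusted p = 5.69e-09). Against the majority of the list, the glucose transporter Slc2a1 rose from 43.9 ± 2.90 to 141 ± 8.87 CPM and hexokinase Hk2 from 17.9 ± 0.773 to 97.7 ± 6.87 CPM (log2 fold changes 1.68 and 2.45, adjusted p = 1.14e-17 and 1.08e-18), whereas hexokinase Hk1 fell from 60.4 ± 2.28 to 24.3 ± 4.31 CPM (log2 fold change -1.32, adjusted p = 1.11e-14). Of the 6 genes of the TXNIP and MondoA axis, 1 was called higher, 2 lower and 3 did not pass the test, with a median log2 fold change of 0.29 (0.0545 with library totals, 0 higher and 2 lower, 0.12 with plate edge as a term, 1 higher and 2 lower, and 0.14 without DMSO replicate 1, 0 higher and 2 lower). Klf10 and Arrdc3 fell, at -1.57 (adjusted p = 1.36e-16) and -0.96 (adjusted p = 0.000455). Txnip, a brake on glucose uptake, was low in both groups, at 3.81, 2.52 and 3.58 CPM with DMSO and 4.03, 5.84 and 3.74 CPM with piericidin, with overlap (log2 fold change 0.46, adjusted p = 0.17).

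Stress programs other than the integrated stress response moved in part. Of 18 mitochondrial chaperones and proteases, 14 were called higher, 0 lower and 4 did not pass the test, with a median log2 fold change of 0.57 (0.33 with library totals, 11 higher and 1 lower). Lonp1, the matrix protease, rose from 33.2 ± 2.84 to 191 ± 14.1 CPM, and Hspa9, the matrix HSP70, rose from 615 ± 13.9 to 1664 ± 69.3 CPM (log2 fold changes 2.52 and 1.44, adjusted p = 5.28e-18 and 2.04e-23). Of 25 genes of the endoplasmic reticulum chaperones and the XBP1 branch, 14 were called higher, 5 lower and 6 did not pass the test, with a median log2 fold change of 0.437 (0.21 with library totals, 11 higher and 11 lower, and 0.18 with plate edge as a term, 16 higher and 4 lower). Hspa5, the BiP chaperone, measured 761.7, 736 and 735 CPM with DMSO and 3053, 3124 and 3119.8 CPM with piericidin, without overlap (log2 fold change 2.06, SE 0.0433, adjusted p = 2.24e-26). Dnajb9, a BiP partner, and Herpud1, which serves degradation at that membrane, rose from 27.8 ± 1.70 to 193 ± 7.71 CPM and from 74.3 ± 4.69 to 413 ± 6.24 CPM (log2 fold changes 2.80 and 2.48, adjusted p = 1.79e-22 and 1.15e-25). Creld2, another gene of this list, fell, at -0.949 (adjusted p = 1.82e-15). Of 16 cytosolic heat shock genes, 5 were called higher, 9 lower and 2 did not pass the test, with a median log2 fold change of -0.349 (-0.58 with library totals, 2 higher and 12 lower). The inducible HSP70 gene Hspa1a fell from 3.55 ± 1.504 to 0.619 ± 0.616 CPM, although its reads could be split with its near copy Hspa1b, and Hspa8, the constitutive HSP70, fell from 1745 ± 40.8 to 764 ± 34.9 CPM, while the small chaperone Hspb1 rose from 212 ± 10.2 to 384 ± 7.56 CPM.

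Of 34 autophagy and lysosome genes, 20 were called higher, 2 lower and 12 did not pass the test, with a median log2 fold change of 0.38 (0.14 with library totals, 15 higher and 8 lower). Sqstm1, the autophagy receptor p62, measured 458, 491 and 486 CPM with DMSO and 4256, 4537 and 4447 CPM with piericidin and was 9.23 times its DMSO mean (log2 fold change 3.21, SE 0.0338, adjusted p = 7.45e-34). Tfeb, a regulator of lysosome genes, fell from 2.28 ± 0.442 to 0.392 ± 0.152 CPM (log2 fold change -2.50, adjusted p = 5.36e-05), and Wipi1 had a log2 fold change of -1.36. Wipi2 was called higher, with uneven replicates of 15.7, 54.0 and 29.1 CPM with DMSO and 209, 137 and 213 CPM with piericidin. Of 28 NRF2 antioxidant genes, 13 were called higher, 12 lower and 3 did not pass the test, with a median log2 fold change of 0.11 (-0.12 with library totals, 6 higher and 14 lower, -0.0257 with plate edge as a term, 12 higher and 12 lower, and 0.0147 without DMSO replicate 3, 10 higher and 11 lower). Hmox1, heme oxygenase, rose from 38.9 ± 1.59 to 287 ± 8.25 CPM (log2 fold change 2.88, adjusted p = 3.81e-24), while Nqo1 and Gstm1, also NRF2 targets, fell at -0.91 and -0.97. Of 18 HIF targets, 8 were called higher, 6 lower and 4 did not pass the test, with a median log2 fold change of 0.197 (-0.0350 with library totals, 5 higher and 8 lower, 0.0509 with only the groups compared, 8 higher and 6 lower, and 0.0580 without piericidin replicate 2, 8 higher and 7 lower). Ndrg1, a stress and hypoxia gene, rose from 30.5 ± 3.92 to 559 ± 17.6 CPM and Ero1l, an oxidase of the secretory path, rose from 35.8 ± 10.8 to 405 ± 10.6 CPM, with log2 fold changes of 4.195 (adjusted p = 1.89e-29) and 3.49 (adjusted p = 3.39e-18). Egln3, an oxygen sensor hydroxylase, fell from 26.5 ± 3.22 to 2.79 ± 0.802 CPM (log2 fold change -3.24, adjusted p = 1.07e-13), and Ankrd37 fell at -1.97.

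Muscle regulators fell as a list with 1 large exception. Of 15, 2 were called higher, 10 lower and 3 did not pass the test, with a median log2 fold change of -0.77. Myf5, a determination factor of myoblasts, measured 12.3, 9.86 and 9.50 CPM with DMSO and 56.4, 56.4 and 53.1 CPM with piericidin and rose without overlap (log2 fold change 2.39, SE 0.132, adjusted p = 7.14e-16). Myod1, the other determination factor, fell from 118 ± 4.05 to 74.8 ± 2.22 CPM (log2 fold change -0.66, adjusted p = 1.13e-09). Eya1, a partner of homeobox factors of muscle, fell from 14.9 ± 0.785 to 3.82 ± 1.29 CPM, Id2, an inhibitor of myogenic factors, fell from 103 ± 7.93 to 29.3 ± 1.53 CPM, and Pax7, the satellite cell factor, fell from a low level of 2.56 ± 0.819 to 0.731 ± 0.664 CPM. Of 8 identity markers of myoblasts, 2 were called higher, 4 lower and 2 did not pass the test, with a median log2 fold change of -0.15 (-0.39 with library totals, 2 higher and 5 lower), with Ncam1 higher at 1.28 and Vcam1 lower at -1.83. Of 10 differentiation and sarcomere genes, 2 were called higher, 2 lower and 6 did not pass the test, with a median log2 fold change of -0.0208 (-0.25 with library totals, 1 higher and 4 lower, 0.00660 with plate edge as a term, 2 higher and 0 lower, 0.18 with only the groups compared, 2 higher and 0 lower, and -0.195 without piericidin replicate 1, 3 higher and 1 lower). Acta1, skeletal actin, rose from 15.7 ± 2.24 to 28.5 ± 2.61 CPM, and the calls of Tnni1 and Mylpf did not hold with plate position in the model.

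Immediate early, chemokine, YAP target and matrix genes were read next. Of 21 immediate early genes, 13 were called higher, 5 lower and 3 did not pass the test, with a median log2 fold change of 0.8004. Egr1, a serum-induced transcription factor, measured 69.5, 104 and 103 CPM with DMSO and 12.3, 12.1 and 10.1 CPM with piericidin, without overlap (log2 fold change -3.0, SE 0.122, adjusted p = 3.38e-19). Egr3 fell from 2.41 ± 0.631 to 0.292 ± 0.174 CPM (log2 fold change -3.02, adjusted p = 7.47e-07). Klf4, a factor of growth arrest, rose from 4.21 ± 0.488 to 27.3 ± 1.41 CPM (log2 fold change 2.69, adjusted p = 4.86e-14), and Ier2 rose with uneven replicates of 14.5, 45.0 and 26.6 CPM with DMSO and 227, 83.3 and 265 CPM with piericidin. Of 17 chemokines and cytokines, 3 were called higher, 10 lower and 4 did not pass the test, with a median log2 fold change of -1.42. The monocyte chemoattractants Ccl2 and Ccl7 fell from 12.1 ± 1.40 to 1.07 ± 0.372 CPM and from 6.79 ± 0.453 to 1.02 ± 0.956 CPM (log2 fold changes -3.47 and -2.73, adjusted p = 6.26e-15 and 1.73e-07). Cxcl10 and Il11 rose from low levels, to 3.33 ± 1.11 and 3.40 ± 0.743 CPM. Of 13 YAP targets, 9 were called higher, 3 lower and 1 did not pass the test, with a median log2 fold change of 0.68 (0.45 with library totals, 8 higher and 4 lower), with Ctgf from 176 ± 8.03 to 601 ± 24.01 CPM and Ankrd1 from 265 ± 4.31 to 698 ± 49.2 CPM. Of 32 collagens and matrix genes, 13 were called higher, 13 lower and 6 did not pass the test, with a median log2 fold change of 0.0163 (-0.21 with library totals, 9 higher and 17 lower, -0.00437 with only the groups compared, 11 higher and 14 lower, -0.11 without DMSO replicate 1, 12 higher and 13 lower, -0.00441 without piericidin replicate 2, 11 higher and 13 lower, and -0.00909 without piericidin replicate 3, 12 higher and 12 lower). Timp3, a metalloprotease inhibitor, rose from 226 ± 7.79 to 983 ± 25.2 CPM and the matrix protein Tnc from 247 ± 9.56 to 791 ± 32.2 CPM, while Loxl3 and Col8a1 fell at -1.58 and -1.22.

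Of 15 core clock genes, 9 were called higher, 4 lower and 2 did not pass the test, with a median log2 fold change of 0.41 (0.18 with library totals, 7 higher and 5 lower). Ciart, a repressor of the clock, measured 5.05, 4.22 and 3.41 CPM with DMSO and 57.5, 57.9 and 58.4 CPM with piericidin (log2 fold change 3.77, SE 0.147, adjusted p = 1.16e-19). The activator Arntl (BMAL1) and the repressor Cry2 rose from 12.6 ± 0.185 to 48.5 ± 5.52 CPM and from 6.86 ± 1.28 to 35.7 ± 4.40 CPM, whereas Nr1d1, which represses Arntl, fell from 23.4 ± 0.923 to 7.87 ± 1.33 CPM (log2 fold changes 1.94, 2.38 and -1.57, adjusted p = 4.02e-15, 5.77e-15 and 2.03e-11). Of 10 metallothioneins and zinc transporters, 6 were called higher, 2 lower and 2 did not pass the test, with a median log2 fold change of 0.67 (0.436 with library totals, 5 higher and 3 lower), with Mt2 higher at 1.71 and the zinc importer Slc39a10 lower at -2.32. Of 20 genes of mitochondrial dynamics and biogenesis, 7 were called higher, 6 lower and 7 did not pass the test, with a median log2 fold change of 0.0429 (-0.188 with library totals, 3 higher and 9 lower, and -0.0739 without DMSO replicate 1, 7 higher and 5 lower), with Pprc1, a coactivator of the PGC-1 family, at 1.26 (adjusted p = 1.08e-06). Of 45 mitochondrial ribosomal proteins, 24 were called higher, 11 lower and 10 did not pass the test, with a median log2 fold change of 0.204 (-0.0288 with library totals, 15 higher and 20 lower), and Mrps18b (1.40) and Mrpl18 (-1.18) moved most. Of 17 purine synthesis enzymes, 9 were called higher, 3 lower and 5 did not pass the test, with a median log2 fold change of 0.26 (0.0330 with library totals, 4 higher and 6 lower), with Prps2, which makes the ribose donor, lower at -1.33 (adjusted p = 7.45e-11). Of 15 pyrimidine synthesis enzymes, 7 were called higher, 4 lower and 4 did not pass the test, with a median log2 fold change of 0.0362 (-0.196 with library totals, 5 higher and 8 lower, and -0.00368 without DMSO replicate 3, 7 higher and 4 lower), with Ctps2, a CTP synthase, lower at -1.44 (adjusted p = 2.19e-12).

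Over all genes, the largest changes were then taken among genes called with at least 50 counts on average and without overlap. Besides genes already described, 9 of the 15 highest were Car6, Extl1, Avil, Elmo1, Prg4, Adm2, Cox6a2, Cdsn and Stbd1. Car6, a secreted carbonic anhydrase, measured 0.354, 0.340 and 0 CPM with DMSO and 40.4, 43.8 and 50.6 CPM with piericidin (log2 fold change 7.47, SE 0.27, adjusted p = 1.94e-20). Cdsn, a protein of the skin barrier, measured 2.57, 1.63 and 2.15 CPM with DMSO and 74.9, 84.6 and 87.6 CPM with piericidin (log2 fold change 5.30, SE 0.148, adjusted p = 2.73e-23). Adm2, a peptide hormone of the adrenomedullin family, measured 0.0886, 0.612 and 0.358 CPM with DMSO and 31.6, 30.5 and 36.7 CPM with piericidin (log2 fold change 6.42, SE 0.234, adjusted p = 2.42e-20). All 3 were almost silent or low with DMSO, and lack of overlap was part of the rule that chose them. Avil, an actin-binding protein, Prg4, a lubricating proteoglycan, and Cox6a2, the muscle form of a complex IV subunit, had log2 fold changes of 7.02, 6.55 and 6.28, from 6, 14 and 5 counts in the DMSO libraries together. Exons of each overlap exons of another gene on the opposite strand in the GENCODE M21 annotation (Tsfm, Tpr and Itgad), and the libraries did not keep strand. Elmo1, an activator of RAC, had a log2 fold change of 6.59 from 4 counts, and its exons overlap those of Gm32036 on the opposite strand. Extl1, a glycosyltransferase, had 3 counts with DMSO and 438 with piericidin, a ratio of 195 with a 95% counting interval from 66.4 to 950.4. Stbd1, a glycogen-binding protein, varied between replicates, at 4.43, 9.39 and 5.20 CPM with DMSO and 177, 64.4 and 258 CPM with piericidin (log2 fold change 4.68, SE 0.706, adjusted p = 1.26e-06).

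The 15 lowest were led by Angpt1, a vessel growth factor, at 63.7, 59.3 and 57.6 CPM with DMSO and 1.46, 1.19 and 2.39 CPM with piericidin. It fell in every sample (log2 fold change -5.15, SE 0.202, adjusted p = 1.39e-19). Gprin3, Rab7b and Trerf1 followed, with log2 fold changes of -4.58 (adjusted p = 3.14e-11), -4.54 (adjusted p = 2.21e-11) and -4.42 (adjusted p = 4.91e-14). The matrix protein Olfml2b fell from 39.7 ± 3.10 to 3.24 ± 0.370 CPM (log2 fold change -3.61, adjusted p = 4.44e-20). Irs1, the adapter of the insulin and IGF1 receptors, measured 37.5, 33.4 and 40.5 CPM with DMSO and 4.14, 3.35 and 2.60 CPM with piericidin (log2 fold change -3.46, SE 0.159, adjusted p = 7.54e-18). Crip1, a LIM domain protein, fell from 119.9 ± 8.24 to 11.3 ± 1.1003 CPM, and Ctnnal1, a relative of alpha-catenin, fell from 47.1 ± 1.42 to 4.45 ± 1.14 CPM. The vasopressin receptor Avpr1a, Rnf150, Kazald1 and the peptide Apln had log2 fold changes between -3.75 and -3.52. Pagr1a, at 11.7, 1.43 and 16.04 CPM with DMSO and 1.34, 0.541 and 0.416 CPM with piericidin, passed the rule with uneven values, and its exons overlap those of its near copy Pagr1b, so that its reads are uncertain.

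Piericidin was then compared directly with inhibitors of other parts of the chain. Against antimycin, 2145 genes (17.9%) were higher and 2310 (19.3%) lower with piericidin, and 695 of these differed at least 2-fold. With library totals as the scale the majority turned, to 2635 higher and 1830 lower. Against oligomycin, 2393 genes (20%) were higher and 2300 (19.2%) lower, and 611 differed at least 2-fold, with 1747 higher and 3121 lower when library totals were used. The orphan receptor Nr4a1 was at 8.61 ± 0.504 CPM with piericidin and 80.2 ± 3.94 with antimycin (log2 fold change -3.22, SE 0.194, adjusted p = 3.72e-14). Also lower were Mylk2, Lmcd1 and the growth factor Pgf, at -3.02, -2.82 and -2.82, as well as Cxcl10, at -2.84. Higher with piericidin were Avil (log2 fold change 2.41, SE 0.281, adjusted p = 4e-08), Serpinb9g at 2.04, Plek at 2.02 and Extl1 at 1.95, together with Zfp966 and Ifi211, members of large gene families. Of 24 stress response regulators, 3 were higher and 9 lower than with antimycin, with a median difference of -0.0663 (-0.0037 with library totals, with the same counts). Of the amino acid synthesis list, 15 of 20 were higher with piericidin than with antimycin and 1 lower, with a median difference of 0.38. Of the mitosis list, 31 of 40 were higher and 2 lower, with a median of 0.36, and of the immediate early genes 15 of 21 were lower and 1 higher, with a median of -0.81. The median over all genes tested was -0.0177.

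Against oligomycin, the genes of endoplasmic reticulum stress were mostly higher. Of that list, 23 of 25 were higher with piericidin and 0 lower at the threshold, with a median of 0.48 beside -0.0016 over all genes. Of the 24 stress response regulators, 14 were higher and 6 lower, with a median of 0.61. Dnajb9 was at 193 ± 7.71 CPM with piericidin and 33.1 ± 0.883 with oligomycin (log2 fold change 2.54, SE 0.0837, adjusted p = 2.32e-20). Fgf21 was higher than with oligomycin (log2 fold change 2.27, SE 0.276, adjusted p = 8.37e-08), as were Prg4 (2.87), Pmaip1 (2.25), the hyaluronan synthase Has1 (3.01) and Lims2 (2.05). Of the replication list, 23 of 50 were lower and 8 higher, with a median of -0.194 (-0.29 with library totals, 7 higher and 27 lower). Egr1 was lower than with oligomycin (log2 fold change -2.58, SE 0.122, adjusted p = 1.2e-16), as were the protease Adamts5 (-2.69), Olfml2b (-1.99) and the Mediator subunit Med30 (-1.82).

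**Figure D4:**
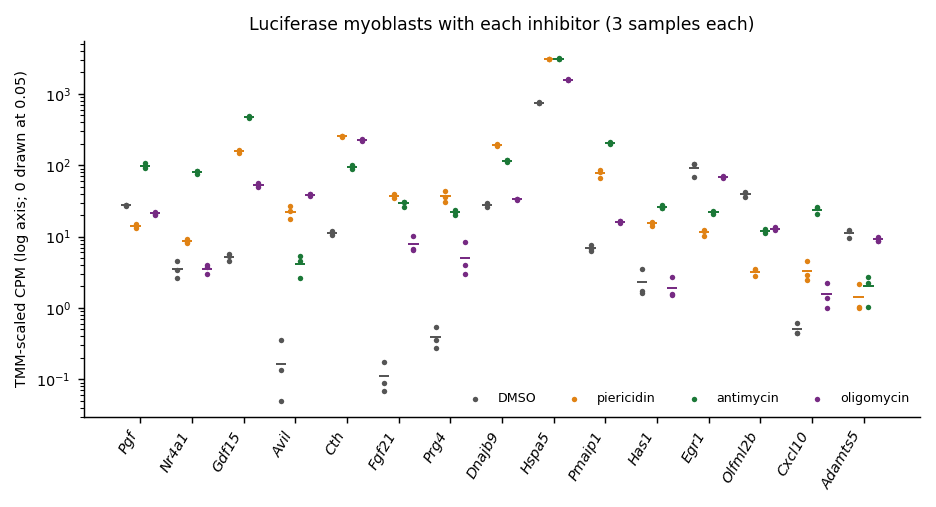
Points are the TMM-scaled CPM of 15 genes in 3 samples each of luciferase myoblasts with DMSO, piericidin, antimycin or oligomycin on a log axis, with 0 drawn at 0.05, and bars are means. By group mean, Pgf, Nr4a1 and Gdf15 are highest with antimycin, Avil is highest with oligomycin, and Egr1 and Olfml2b are lower with piericidin than with oligomycin.

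The effect of piericidin was also measured in cells that carried another NADH-oxidizing enzyme. In myoblasts with NDI1 (2 piericidin and 2 DMSO samples), 1 gene was called by the same test, beside 1005 at an unadjusted p under 0.05. In myoblasts with LbNOX 1063 genes (8.87%) were called, and in those with mitoLbNOX 1341. Tested as an interaction, the response in NDI1 cells differed from that in luciferase cells at 5116 genes (42.7%), in LbNOX cells at 5311 (44.3%) and in mitoLbNOX cells at 5130. The 1070 genes called at least 2-fold higher in luciferase cells had a median log2 fold change of 0.0985 where NDI1 was carried, 0.29 with LbNOX and 0.39 with mitoLbNOX, against 1.44 in the luciferase cells whose values chose them. The 1376 genes called at least 2-fold lower had medians of -0.0716, -0.17 and -0.24, in the same order, against -1.49.

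The lists were then read in LbNOX cells. The highest medians there were 0.72 for the stress response regulators, 0.36 for the cytosolic tRNA synthetases, 0.355 for the HIF targets and 0.348 for the amino acid synthesis enzymes, beside -0.0023 over all genes. The ribosome biogenesis list, at 0.0851, and the snoRNA hosts, at 0.15, lay lower, as did the endoplasmic reticulum list at -0.11. The cholesterol synthesis list had a median of -0.46. Of 71 genes called at least 2-fold higher and 16 at least 2-fold lower in LbNOX cells, 54 were at least 2-fold higher and 7 at least 2-fold lower in the luciferase cells too. Among them Trib3 had a log2 fold change of 2.62 in LbNOX cells (SE 0.0922, adjusted p = 4.38e-19), Cdsn 2.83 (SE 0.181, adjusted p = 6.96e-13) and Cth 2.30 (SE 0.105, adjusted p = 3.14e-16). Stbd1 was at 2.16 and Gsta1, a glutathione transferase, at 2.06. Ctnnal1 was the lower gene that passed the rule for naming, at -1.096 (SE 0.127, adjusted p = 2.21e-07).

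**Figure D5:**
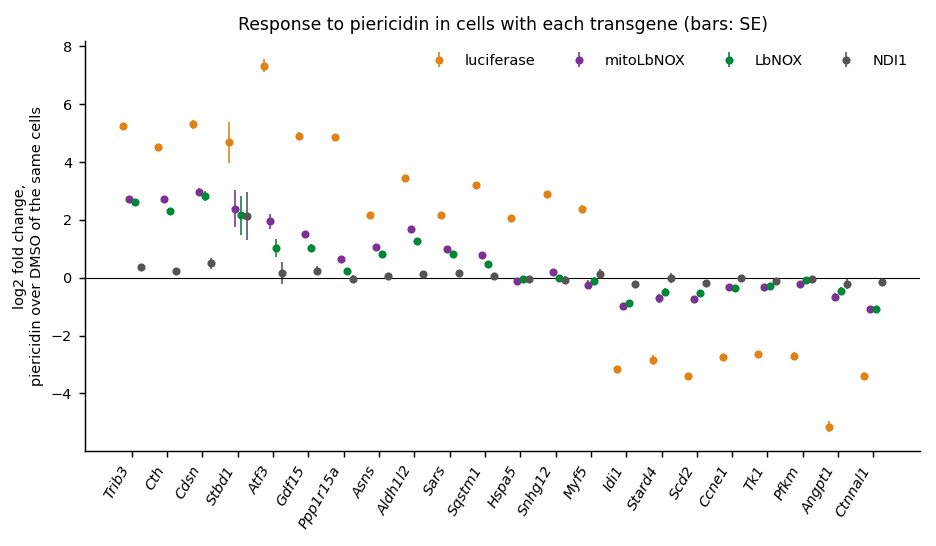
Points are log2 fold changes of piericidin over the DMSO samples of the same cells for 22 genes, with bars of 1 SE, in cells that carry luciferase, mitoLbNOX, LbNOX (3 samples per group each) or NDI1 (2 per group). The luciferase point lies furthest from 0 at all 22 genes, and the NDI1 points other than that of Stbd1 lie near 0. Most of these genes were chosen by the size of their change in luciferase cells, which favours that order.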

How the data were processed

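C2C12 myoblasts were profiled by the authors with polyA-selected Smart-seq2 libraries that do not keep strand, quantified with kallisto 0.44 with bias correction against mouse transcripts (Ensembl, GRCm38) plus the transgenes, and summed to genes with tximport. The deposited values are estimated counts, all whole numbers, not normalized, for 54146 genes and 4 transgenes in 96 samples; plate wells come from the labels, which do not explain them. All 37 myoblast samples of the 10 hr treatments (13 conditions) were modelled together with edgeR 4.0.16 in R 4.3.3, with TMM scaling, on the 11981 genes for which some condition had no replicate under 16 counts; the quasi-likelihood F test had 24 residual degrees of freedom before moderation. P-values were adjusted by Benjamini-Hochberg over all genes tested. SE is the size of the log2 fold change over the square root of F, and SD is over 3 samples. Nothing in the labels says that replicates came from separate cultures, so p-values measure the spread between these samples, which may be technical. On simulated data of 11833 genes the test recovered 45 of 50 genes raised 2-fold, 44 of 50 lowered 2-fold and 49 of 50 changed 4-fold in either direction, with 4 false calls. The simulation changed few genes, evenly in both directions and away from the lowest counts, with noise from the fitted spread. Most tested genes were called in the real data, so it does not measure the accuracy of those calls.

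The 44 gene lists and the comparisons were chosen with earlier results of these data known. Named genes are up to 4 called members of each list with the largest changes and up to 2 called against the majority, the 15 highest and 15 lowest of all genes, 6 in each direction against antimycin and against oligomycin, and up to 5 in each direction shared with LbNOX cells, with at least 50 counts on average, groups that do not overlap and no predicted genes; other members named were chosen after their values were seen. Of the list symbols 2 could not be matched. Of 269 genes checked, 81 have exons that overlap a gene on the opposite strand in GENCODE M21. Promoter windows and gene positions are on GRCm38. Counting intervals (95%, exact) cover counting error only. Alternatives were DESeq2 size factors, no count filter, DESeq2 1.42.0's Wald test, a replicate block, plate edge as a term, only the groups compared, each replicate left out, and, added after seeing the data, library totals as the scale. Results for some genes that the rule names are not reported here. Columns of the other 59 samples were not used here.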

Additional observations from a re-analysis of the deposited data

Results flagged for a closer look

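The response to piericidin differed between luciferase myoblasts and myoblasts with another enzyme, tested in edgeR as an interaction of treatment and cells, at 5116 genes for NDI1, 5311 for LbNOX and 5130 for mitoLbNOX. The naming rule picked genes from the 61 changed at least 2-fold in the same direction in luciferase and LbNOX cells. Of those picked, Trib3, Cth, Cdsn, Ctnnal1 and Stbd1 were called for a difference between the cells, and Gsta1 was not (-0.0380, adjusted p = 0.961). The rest of the 61 are not described, and over all genes tested 44.3% were called for this difference. The difference in log2 fold change, LbNOX minus luciferase, was -2.64 for Trib3 (adjusted p = 2.19e-16), -2.21 for Cth (adjusted p = 1.22e-13), -2.47 for Cdsn (adjusted p = 7.98e-09) and 2.30 for Ctnnal1 (adjusted p = 3.66e-11), all from edgeR. For Stbd1 it was -2.52 (adjusted p = 0.0339), a call lost when any of 6 single libraries was left out.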

How the results depend on the processing

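The total counts of genes called for piericidin against DMSO, antimycin and oligomycin, and for the interactions with NDI1, LbNOX and mitoLbNOX, stayed within 1.5 times of the reported counts under every alternative run. Counts in 1 direction moved further. With library totals as the scale, an alternative chosen after seeing the data, 2410 genes were called higher for piericidin against DMSO in place of 3704. With the same scale the interaction with NDI1 gave 4001 genes higher and 1490 lower in place of 2543 and 2573, and that with mitoLbNOX 3932 and 1484 in place of 2570 and 2560. With library totals 8 of the 44 lists changed the sign of their median. Signs also turned at 2 lists with plate edge as a term (antioxidant and sarcomere genes), at 2 with only the groups compared (collagens and sarcomere genes), and at 4 when a replicate was left out: complex I subunits and pyrimidine enzymes without DMSO replicate 3, mitochondrial dynamics without DMSO replicate 1, and collagens without DMSO replicate 1 or piericidin replicate 2 or 3. When a replicate was left out, the medians of 14 lists moved by over 1.5 times in at least 1 of the 6 fits. Leaving out 1 replicate gave between 6850 and 7101 genes called for piericidin against DMSO, between 3208 and 3576 higher, between 3395 and 3704 lower, and between 2364 and 2549 at least 2-fold. Same-numbered DMSO and piericidin samples did not deviate together (correlations of -0.0943, -0.212 and -0.052), so the numbers were not taken to pair samples; with a replicate block 7472 genes were called. With plate edge as a term 7149 genes were called. Of 264 named genes that were called, 239 kept direction and call under every alternative that gave them a value, out of 13. Most named genes were chosen by the size of their change in these same samples, so this count does not describe called genes in general. With only the groups compared, 5 of the 264 had too few counts to be refitted. Lmcd1, not called against DMSO, turned from -0.13 to 0.040 without piericidin replicate 3, in a range of -0.25 to 0.040 over the fits that leave out a replicate. The difference between LbNOX and luciferase cells at Gsta1, not called at -0.0380, turned to 0.11 with library totals and ranged from -0.38 to 0.41 when a replicate was left out. The cause of these changes was not tested.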

Other observations

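A few strongly induced genes had uneven replicates with a shared order. Stbd1, Rrs1, Ier2, Lamp1 and Rps2, picked after their values were seen, were lowest among piericidin samples in replicate 2, the piericidin sample from an edge well. Among DMSO samples, which all came from edge wells, the same genes were highest in replicate 2. Lamp1, a lysosomal membrane protein, measured 35.1, 92.6 and 51.0 CPM with DMSO and 280.0, 105 and 391 CPM with piericidin, and Rps2, a ribosomal protein, measured 3.19, 5.64 and 4.84 CPM with DMSO and 21.6, 8.004 and 30.7 CPM with piericidin. With plate edge as a term in edgeR, Lamp1 had a log2 fold change of 0.99 and Rps2 one of 0.98, in place of 2.11 and 2.13, and neither was called. The part of plate position in these values cannot be told apart from the difference between samples.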
